A study of Mus musculus with 4 samples.

Results

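This report describes 10 genes that serve as feedback inhibitors, ETS transcription factors and growth factor output of the ERK pathway. They are the dual-specificity phosphatases Dusp4 and Dusp6, the inhibitors Spry1, Spry2, Spry4 and Spred1, the ETS factors Etv1, Etv4 and Etv5, and the ligand Fgf2. They were listed by name, with no threshold on a measured value but with earlier results of these data known, and all 10 were found among the 22835 genes of the deposited exon table. Together they hold 99 of its 226463 exons. RNA was sequenced from Mitf knock-in mouse embryonic fibroblasts (MEFs) at passage 5, either untreated, called Dox (-), or given doxycycline (Dox) for 6 days, called Dox (+). A library labelled WT MEF came from wild-type MEFs at passage 3. Dox (-) and Dox (+) cells share the M2rtTA transactivator at ROSA26 and a Dox-responsive transgene for M-Mitf, the Mitf isoform of melanocytes, at Col1a1. The knock-in cells descend from 1 correctly targeted embryonic stem cell clone and were made from chimeric embryos, which also hold host cells. The knock-in cells carried an mCherry marker and puromycin resistance, by which the study could purify them from host cells. All MEFs grew in DMEM with serum. Primary mouse melanocytes (PMel), also at passage 5, were sequenced too and are not analysed here. Each condition had 1 library, so no difference below has a replicate check, and no p-value is given. The deposited WT MEF values are not those that the study's supplementary table lists for MEF, and comparisons with WT MEF describe the deposited library.

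ERK is the last kinase of a relay that runs from growth factor receptors through RAS, RAF and MEK. Active ERK phosphorylates ETS factors and other nuclear proteins, and among the genes switched on in turn are inhibitors of the relay itself. DUSP6 dephosphorylates ERK in the cytoplasm and DUSP4 acts on it in the nucleus, while Sprouty and SPRED proteins act further upstream, near RAS and RAF. ETV1, ETV4 and ETV5 form the PEA3 group of ETS factors. In melanocytes the relay is driven by KIT and other receptors, and ERK phosphorylates MITF. Transcripts of these genes are often read as a gauge of ERK activity, which was not measured in this series.

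The values are RPKM, reads on an exon scaled by its length and by the aligned reads of the library. Following the study's methods, a gene's level was that of its exon with the highest RPKM. Read numbers recovered from the RPKM gave depths of 45000000 reads for WT MEF and Dox (-) and 44000000 for Dox (+). With these depths, 96.8% to 97.1% of values below 200 reads came out whole within 0.02 reads. Mitf, the induced gene, stood at 1.52 RPKM in WT MEF, 30.8 in Dox (-) and 1544 in Dox (+). The median gene was higher in Dox (+) than in Dox (-) by 0.23 on the log2(RPKM + 1) scale. That shift is given beside the changes of the members and is not taken off the folds. Cell type markers differed strongly between libraries. The summed level of 12 macrophage markers was 61.1 RPKM in WT MEF, 18670 in Dox (-) and 644 in Dox (+), and 2, 12 and 7 of them were above 10 RPKM. The 10 fibroblast markers, collagens among them, summed to 21223, 56699 and 14442 RPKM, and at least 9 of them passed 10 RPKM in each library. Of 12 melanocyte markers, 4 passed 10 RPKM in Dox (+) and 0 in the other libraries, and their sums were 5.24, 15.1 and 282 RPKM. Tyrp1, Dct, Oca2 and Mc1r were listed at 0 in WT MEF, Tyr and Oca2 in Dox (-), and Oca2 in Dox (+). In bulk RNA, a gene made by fewer cells and a gene made at a lower level per cell cannot be told apart, and the part of the macrophage and fibroblast differences in the values below was not tested.

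After 6 days of Dox, most feedback and ETS genes stood higher than in untreated knock-in MEFs, with Dusp4 far ahead, Dusp6 level and Spry1 lower. All 10 passed 10 RPKM in Dox (-) or Dox (+). Dusp4 alone was more than 4-fold higher, which was true of 1.64% of the 13307 genes tested, and 0 of 10 were more than 4-fold lower, against 5.41% of genes. Past 2-fold, 5 of 10 were higher (Dusp4, Spry4, Etv1, Etv4 and Etv5), against 10.8% of genes, and 1 of 10, Spry1, was lower, against 11.1%. The median log2 change of the 10 genes was 0.94, beside 0.23 over all genes tested, and 8 of the 10 lay above that median. Below, a gene is said to rise or fall where it passed 2-fold, with that median not taken off. Less the median, the log2 change of Etv5 was 0.92, below 2-fold. The other genes past 2-fold stayed beyond it at the level of the highest exon. On summed reads of non-overlapping exons, the log2(RPKM + 1) changes of Spry4, Etv1 and Etv5 were 0.96, 0.79 and 0.98. These lay below 2-fold on that scale before the median was taken off.

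**Figure D1:**
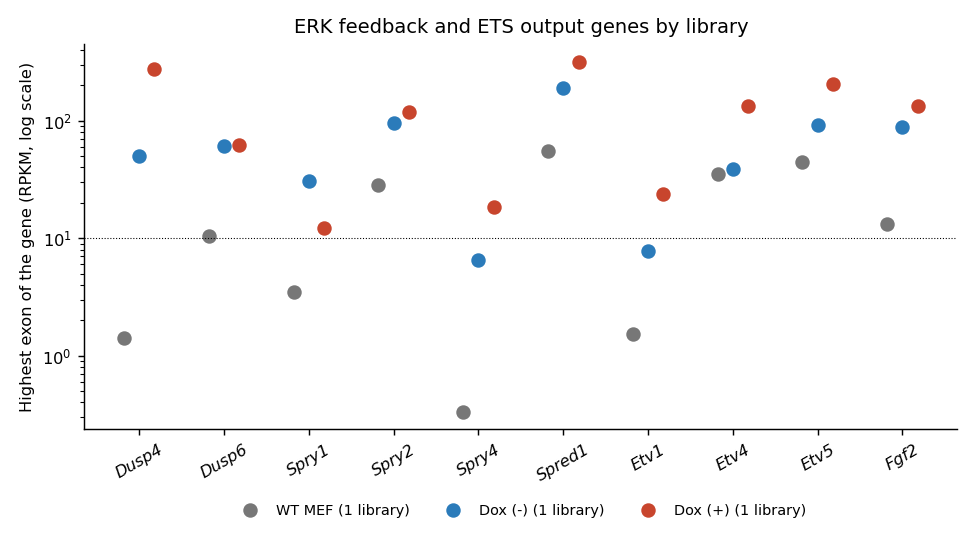
Highest exon of each gene in RPKM (log scale) in the libraries WT MEF (grey), Dox (-) (blue) and Dox (+) (red), 1 point per library; the dotted line marks 10 RPKM. Dusp4 spans 1.43 to 276 RPKM, Dusp6 has nearly the same level in Dox (-) and Dox (+), and Spry1 is the only gene whose Dox (+) point lies below its Dox (-) point.

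Dusp4 (chr8:34807297-34819894, plus strand, mm10) showed the steepest rise of the members. Its level was 1.43 RPKM in WT MEF, 50.4 in Dox (-) and 276 in Dox (+). The exon that was highest in both knock-in libraries held 5 reads in WT MEF, 499 in Dox (-) and 2670 in Dox (+). The libraries were thus well separated, and Dox (+) exceeded Dox (-) 5.47-fold on that exon, with a 95% counting interval of 4.97 to 6.03. All 4 exons gave the same direction, with folds from 5.25 on the last exon to 9.06 on the second. The second exon had 0 reads in WT MEF and 877 in Dox (+). With a floor of 3 reads per exon in place of 0, it was 299-fold higher in Dox (+). The lower 95% counting limit of that difference, from the 0 reads, was 243-fold. These intervals and limits cover counting error only.

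Dusp6 (chr10:99263231-99267489, plus strand), which encodes the cytoplasmic ERK phosphatase, did not follow Dusp4 across Dox treatment. It stood at 10.4 RPKM in WT MEF, 61.3 in Dox (-) and 62.1 in Dox (+). The last exon carried 699, 4127 and 4091 reads, so the knock-in libraries were alike and WT MEF lower. Between Dox (+) and Dox (-) the ratio on this exon was 1.01 (0.971 to 1.06). On the first exon the same ratio was 1.53 (1.39 to 1.67), from 782 and 1167 reads, and on the second it was 1.21 (1.11 to 1.32). The value for Dusp6 therefore depended on the exon. A lower ratio on the last exon than on the others was common to most genes in this comparison. Among 11135 genes with at least 3 covered exons, 85.6% had it, with a median difference of -0.29 on the log2 scale, and for Dusp6 the difference was -0.42. Dusp4 (-0.39), Spred1 (-0.33), Etv1 (-0.32), Etv5 (-0.36), Fgf2 (-0.22) and Etv4 (-0.03) also lay below 0. What part the coverage along transcripts has in the value of any single exon was not tested.

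**Figure D2:**
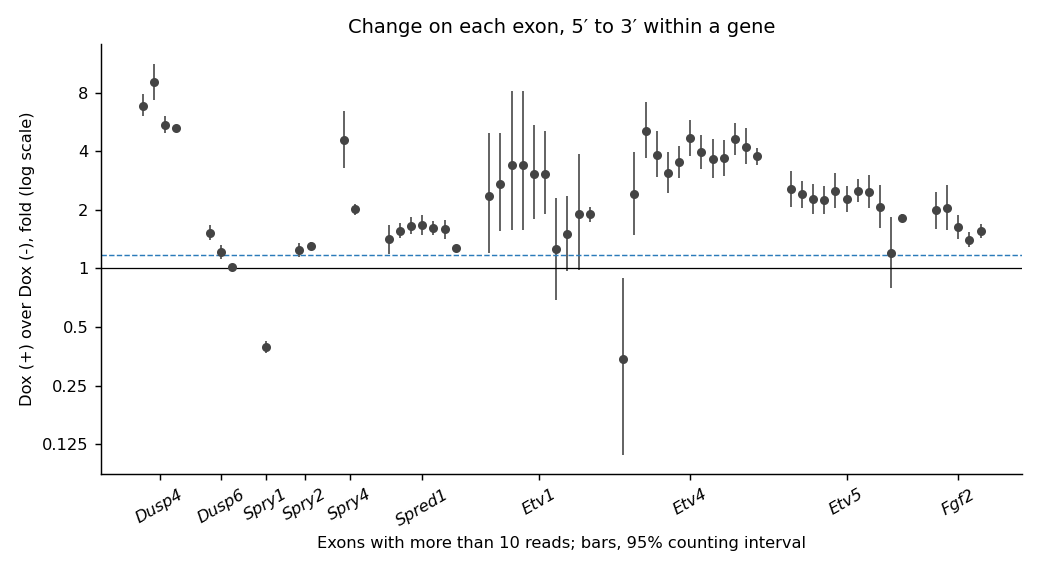
Ratio of Dox (+) to Dox (-) on each non-overlapping exon with more than 10 reads in 1 of the libraries, ordered 5′ to 3′ within a gene, on a log scale; points are ratios, bars are 95% counting intervals and the blue dashed line marks the median of all genes. Exons with 0 reads in Dox (-) are not drawn. All exons of Dusp4 lie above 5, those of Dusp6 step down to 1.01, and the first exon of Etv4 lies apart from its other 12.

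The Sprouty genes, whose products restrain receptor tyrosine kinase signalling, went in different directions. Spry1 (chr3:37639947-37644598, plus strand) was at 3.47 RPKM in WT MEF, 30.6 in Dox (-) and 12.1 in Dox (+). It fell, with 2810 reads in Dox (-) and 1091 in Dox (+) on its main exon, 2.52-fold fewer after scaling to depth (2.35 to 2.70). Its first exons overlap the opposite-strand gene Gm42922 and held at most 10 reads in any library, so the value rests on 1 exon. Spry2 (chr14:105891947-105896819, minus strand) was at 28.5, 95.4 and 119 RPKM. The ratio of Dox (+) to Dox (-) was 1.25 (1.14 to 1.36) on its first exon and 1.31 (1.25 to 1.36) on its second. Both lie close to the median gene, which was 1.17-fold higher. Spry4 was the lowest of the family in WT MEF, at 0.332 RPKM, and reached 6.55 in Dox (-) and 18.6 in Dox (+). It rose, though unequally on its exons. The first went from 45 to 201 reads, a ratio of 4.57 (3.29 to 6.46), and the long second exon from 1328 to 2609 reads, a ratio of 2.01 (1.88 to 2.15). Spred1 (chr2:117121374-117182279, plus strand), a Sprouty-related inhibitor that recruits neurofibromin to RAS, was at 55.6, 191 and 320 RPKM. Its Dox (+) to Dox (-) ratios lay between 1.41 and 1.67 on the first 6 exons and at 1.27 (1.24 to 1.31) on the last, with every interval above 1 and none past 2-fold.

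Promoter sequences are shown for Spry1, the member that fell, and for its paralog Spry2 and for Dusp6, both near the median gene across Dox. The windows cover the 250 bases before the start of transcription, from RefSeq on GRCm38.p6, the assembly of mm10. They were searched on both strands for the E-box letters CACGTG and CATGTG, which MITF can bind, and for CCGGAA and AGGAAG, which hold the ETS core. Capitals mark a match.
Spry1, chr3:37639697-37639946, plus strand: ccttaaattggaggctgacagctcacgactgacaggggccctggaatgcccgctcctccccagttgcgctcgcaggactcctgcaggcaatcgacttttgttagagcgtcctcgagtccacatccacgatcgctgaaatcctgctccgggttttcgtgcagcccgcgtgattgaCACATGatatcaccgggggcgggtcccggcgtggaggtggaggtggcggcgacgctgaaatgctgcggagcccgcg
Dusp6, chr10:99262981-99263230, plus strand: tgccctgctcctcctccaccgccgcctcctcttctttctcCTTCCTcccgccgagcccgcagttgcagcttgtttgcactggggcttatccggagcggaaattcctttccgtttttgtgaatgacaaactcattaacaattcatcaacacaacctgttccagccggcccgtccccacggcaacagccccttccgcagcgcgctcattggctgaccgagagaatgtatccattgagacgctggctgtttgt
Spry2, chr14:105896820-105897069, minus strand: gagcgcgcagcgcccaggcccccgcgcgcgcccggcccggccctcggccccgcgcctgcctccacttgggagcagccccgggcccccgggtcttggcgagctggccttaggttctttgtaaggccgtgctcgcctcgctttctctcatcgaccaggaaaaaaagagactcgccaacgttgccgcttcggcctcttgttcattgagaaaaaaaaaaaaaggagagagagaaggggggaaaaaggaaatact
The Spry1 window held CATGTG, read on the opposite strand, with its first base at position -76 from the start. The exon directly after this window held 1, 3 and 1 reads in WT MEF, Dox (-) and Dox (+). The main exon of Spry1, further downstream, held 319, 2810 and 1091. The Dusp6 window held AGGAAG, also on the opposite strand, at position -210, and the Spry2 window had 0 matches. Over the 9 windows analysed, which belong to 7 members, CATGTG was found in 2 (Spry1 and the second Etv1 start). AGGAAG was found in 2 (Dusp6 and the first Etv1 start), and CACGTG and CCGGAA in 0. Among all 32851 promoter windows of the same length, the shares were 12.3% for CATGTG, 29.5% for AGGAAG, 6.02% for CACGTG and 12.0% for CCGGAA. A match of letters is a description of the window and not a binding site. The Dusp4, Etv4 and Spry4 windows are not analysed here.

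By their highest exons, all PEA3 group factors rose with Dox, from very different levels. Etv5 passed 2-fold only with the median shift left in. Etv4 (chr11:101769742-101785371, minus strand) was at 35.4 RPKM in WT MEF, 38.7 in Dox (-) and 134 in Dox (+), so the untreated and wild-type libraries were close and Dox (+) stood apart. On its highest exon the reads were 110, 113 and 408, a Dox (+) to Dox (-) ratio of 3.69 (2.99 to 4.59). From the third exon to the last, the 11 ratios lay between 3.10 and 5.07. The first exon moved the other way, with 42 reads in WT MEF, 18 in Dox (-) and 6 in Dox (+), 2.93-fold fewer in Dox (+) than in Dox (-) (1.12 to 9.03). The increase of Etv4 was therefore not carried by reads on its annotated first exon.

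Etv5 (chr16:22381309-22439719, minus strand) was at 44.9, 92.8 and 207 RPKM in WT MEF, Dox (-) and Dox (+), and each library lay above the one before. Its highest exon had 103, 213 and 465 reads, and Dox (+) exceeded Dox (-) 2.23-fold (1.89 to 2.64). Exons 3 to 10 gave ratios from 2.23 to 2.56, and the long last exon 1.82 (1.75 to 1.91). Exon 13 gave 2.08 (1.62 to 2.69). Exon 14, with 45 reads in Dox (-) and 53 in Dox (+), gave 1.20 (0.794 to 1.83), an interval that includes 1. The upstream start exons were used little. The first held 2, 0 and 12 reads and the second 4, 0 and 15. Against the floor of 3 reads, they were 4.09-fold and 5.11-fold higher in Dox (+) than in Dox (-). The lower counting limits of these differences, from the 0 reads, were 2.84-fold and 3.67-fold. Exons 11 and 12, of 60 and 69 bp, held at most 3 reads in any library while their neighbours were covered.

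Etv1 (chr12:38779380-38870484, plus strand) was the least abundant of the ETS members, at 1.52 RPKM in WT MEF, 7.82 in Dox (-) and 24.0 in Dox (+). The exon behind the knock-in levels is 54 bp long and held 3, 19 and 57 reads, a Dox (+) to Dox (-) ratio of 3.07 (1.80 to 5.46). The long last exon, with 191, 764 and 1414 reads, gave 1.89 (1.73 to 2.07). Of its 10 exons with more than 10 reads, 7 had intervals above 1. Exons 9, 10 and 12 did not, with ratios of 1.26 (0.688 to 2.31), 1.51 (0.968 to 2.37) and 1.91 (0.986 to 3.85). Etv1 thus passed 2-fold on its highest exon and not on its most deeply covered one.

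**Figure D3:**
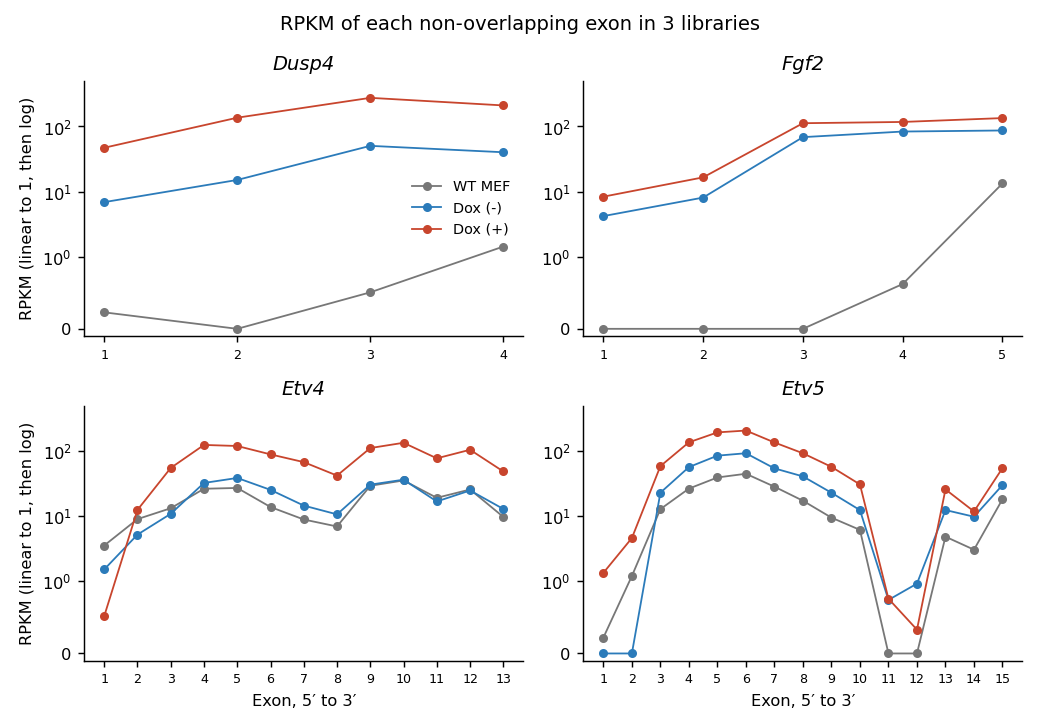
RPKM of each non-overlapping exon, 5′ to 3′, of Dusp4, Fgf2, Etv4 and Etv5 in WT MEF (grey), Dox (-) (blue) and Dox (+) (red); the axis is linear up to 1 and logarithmic above. Fgf2 exons 1 to 3 are at 0 in WT MEF, the libraries change order at the first exon of Etv4, and Etv5 exons 11 and 12 drop to below 1 RPKM in every library.

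Fgf2 (chr3:37348346-37410108, plus strand) encodes basic fibroblast growth factor, a ligand that signals through FGF receptors to ERK. Its highest exons were at 13.3 RPKM in WT MEF, 88.4 in Dox (-) and 135 in Dox (+). The exon behind the WT MEF and Dox (+) levels overlaps Nudt6 on the opposite strand and held 145, 946 and 1434 reads. Since counting by strand is not stated, reads of Fgf2 and Nudt6 cannot be told apart there. Exons 1 to 3, which overlap no other gene, had 0 reads each in WT MEF. They held 128, 89 and 321 reads in Dox (-) and 249, 178 and 514 in Dox (+). Fgf2 was therefore detected on these exons in both knock-in libraries and not in WT MEF. Against the floor of 3 reads, the third exon was 107-fold higher in Dox (-) than in WT MEF. The lower counting limit of that difference, from the 0 reads, was 86.5-fold. In the same comparison the Nudt6-overlapping exon gave 6.52-fold (5.47 to 7.82). Between Dox (+) and Dox (-) the overlap mattered less. The ratios were 1.99 (1.60 to 2.48), 2.05 (1.58 to 2.67) and 1.64 (1.42 to 1.89) on exons 1 to 3, 1.40 (1.28 to 1.54) on exon 4, which overlaps Gm43439, and 1.55 (1.43 to 1.68) on exon 5.

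Against WT MEF, the untreated knock-in MEFs already stood higher for every member, with Etv4 nearly level. In Dox (-), 8 of the 10 genes passed 10 RPKM, while Spry4 and Etv1 stayed below it here and in WT MEF. Dusp4, Dusp6, Spry1 and Fgf2 were more than 4-fold higher than in WT MEF, which makes 4 of 10, against 8.26% of 13234 genes tested. Past 2-fold the count was 7, with Spry2, Spred1 and Etv5 added, against 17.3%. The median log2 difference of the members was 2.13, beside 0.01 over all genes. On the reference exon of each gene, the one highest in any library, the ratio of Dox (-) to WT MEF was 99.8 for Dusp4 (42.5 to 309), 8.81 for Spry1 (7.84 to 9.92) and 5.90 for Dusp6 (5.45 to 6.41). Etv4 differed little, at 1.03 (0.783 to 1.35). The Dusp4 ratio rested on 5 reads in WT MEF. The last exon of Dusp4, with 96 and 2706 reads, gave 28.2 (23.0 to 34.9). The reference exons of Spry4 and Etv1 held 2 and 3 reads in WT MEF, and their ratios of 22.5 (5.88 to 191) and 6.33 (1.86 to 33.4) had wide intervals. Their long last exons were better covered. That of Spry4, with 67 and 1328 reads, gave 19.8 (15.5 to 25.7), and that of Etv1, with 191 and 764 reads, gave a ratio of 4 (3.41 to 4.71). Last exons gave lower ratios than the others here too, in 69.3% of 10786 genes, with a median log2 difference of -0.17. Between Dox (+) and WT MEF this held for 85.2% of 10601 genes, with a median of -0.45.

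In Dox (+), 8 of 10 members were more than 4-fold above WT MEF, against 6.55% of 12941 genes, and all 10 were more than 2-fold above it, against 20.2%. Spry1 and Etv4 were the members between 2-fold and 4-fold, at 3.50-fold (3.08 to 3.98) and 3.79-fold (3.07 to 4.73). The median log2 difference was 2.49, beside 0.27 over all genes. These comparisons share libraries with the one across Dox, so they are not independent of it. Passage, knock-in genotype and the origin of the cells all differ between WT MEF and the knock-in libraries and cannot be told apart, and the macrophage markers summed to 306-fold more in Dox (-) and 10.5-fold more in Dox (+) than in WT MEF, whose part in these differences was not tested.

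The order of abundance changed between libraries. Short exons reach high RPKM, as for the 50 bp exon of Spred1, so genes are ordered here by reads per kb summed over non-overlapping exons. In WT MEF Spred1 came first at 17.0 RPKM, followed by Etv5 at 14.9, Spry2 at 14.7 and Etv4 at 12.4. Dusp4 was eighth at 0.892 RPKM and Spry4 last at 0.322. In Dox (-) Spry2 led at 52.9 RPKM, with Dusp6 at 47.0, Spred1 at 44.5, Fgf2 at 34.3 and Dusp4 at 29.0. In Dox (+) Dusp4 led at 160 RPKM, more than any other member, and Spry2 followed at 68.5. Etv5 at 53.6, Fgf2 at 53.4 and Dusp6 at 52.4 RPKM had overlapping counting intervals in Dox (+), as did Etv5 with Spry2, Spry1 with Fgf2 and Dusp4 with Etv1 in WT MEF. Spry1 came ninth in Dox (+) at 8.66 RPKM and Etv1 last at 5.86. With 1 library each, neighbours in the order have no replicate spread, and a read across a junction can count on both exons.

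The genes with the profile most like that of Dusp6 over the 3 libraries were Mmp17, Angpt2 and Chrdl1, among 13586 genes above 10 RPKM in at least 1 library. Likeness was the Euclidean distance of the centred log2(RPKM + 1) values, which was 0.05 for Mmp17, 0.06 for Angpt2 and 0.06 for Chrdl1. Angpt2 had levels of 8.65, 50.1 and 49.5 RPKM in WT MEF, Dox (-) and Dox (+). Mmp17 had 1.33, 12.3 and 12.0 RPKM, and Chrdl1 1.19, 11.8 and 11.4. At levels so low in WT MEF, the added 1 RPKM shrinks the difference, so the likeness of these 2 depends on it. With 3 values per gene, many genes can share a profile by their number alone.

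Other genes of the pathway were described the same way between Dox (-) and Dox (+). Over all genes tested, 1.64% were more than 4-fold higher and 5.41% lower. At the 2-fold threshold, 10.8% were higher and 11.1% lower. Of 22 ligands and receptors above 10 RPKM, 1 was more than 4-fold higher, the EGF receptor ligand Areg (5.10 to 40.5 RPKM), and 1 more than 4-fold lower, Igf1 (488 to 100.3 RPKM). Their median log2 change was -0.11. Past 2-fold, 3 of the 22 were higher (Met, Ereg and Areg) and 6 were lower (Pdgfb, Igf1, Egfr, Hgf, Fgf18 and Nrg1). Of 25 kinases, adaptors and other core genes of the cascade above 10 RPKM, 0 were more than 4-fold higher and 1 was lower, Rasgrp3, an activator of RAS (18.6 to 2.76 RPKM). Past 2-fold, 2 of the 25 were higher, Map2k1 (MEK1) at 2.28-fold and Hras at 2.15-fold. Another 2 were lower, Rps6ka1, an ERK-activated kinase (44.4 to 12.6 RPKM), and Rasgrp3. Neither count exceeded the share over all genes.

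Among 20 further negative regulators above 10 RPKM, Dusp9 was more than 4-fold higher and Rgs4 more than 4-fold lower. Dusp9, a cytoplasmic ERK phosphatase like Dusp6, had 2.44 RPKM in Dox (-) and 40.1 in Dox (+). Dusp5, a nuclear ERK phosphatase, went from 45.5 to 181 RPKM, 3.99-fold. Past 2-fold 7 of the 20 were higher, with Errfi1, Lrig1, Pebp1, Spred3 and Dusp10, and the median log2 change was 0.43. Of 25 further ERK transcriptional outputs, the AP-1 gene Fosl1 (23.5 to 111 RPKM) and Hmga2 (151 to 684 RPKM) were more than 4-fold higher and 0 lower. Past 2-fold, Myc, Lif, Egr1 and Ccnd1 were also higher, and Fos was lower (61.5 to 22.7 RPKM). The median of that list was 0.44, beside 0.94 for the members and 0.23 for all genes. A list of 10 housekeeping genes had a median of 0.54, above those of the negative regulators and the outputs. Past 2-fold, 3 of these 10 were higher (Gapdh, Pgk1 and Rplp0) and 0 lower.

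Of 15 other ETS factors above 10 RPKM, 0 were more than 4-fold higher and 3 were more than 4-fold lower. Spi1, the ETS factor of macrophages and other myeloid cells, went from 167 RPKM in Dox (-) to 4.84 in Dox (+), and had 0.364 in WT MEF. It moved with the 12 macrophage markers, all of which were more than 4-fold lower in Dox (+). Fli1 and Erg, known from endothelial and blood cells, went from 133 to 29.2 RPKM and from 27.2 to 2.39 RPKM. In WT MEF, Fli1 had 19.0 RPKM and Erg 45.7, so Erg was highest there. The summed level of 6 endothelial markers was 9.37 RPKM in WT MEF, 17.8 in Dox (-) and 5.78 in Dox (+). Only 1 of them, Kdr, passed 10 RPKM, in Dox (-). Erg did not follow their sum across the libraries. Of these markers, Tek had the same order as Erg, at 8.22 RPKM in WT MEF, 2.17 in Dox (-) and 0.161 in Dox (+). The other endothelial markers were highest in Dox (-). The part of other cell types in these ETS values was not tested. Elk1, an ETS factor that ERK phosphorylates directly, passed 2-fold (39.4 to 88.0 RPKM).

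**Figure D4:**
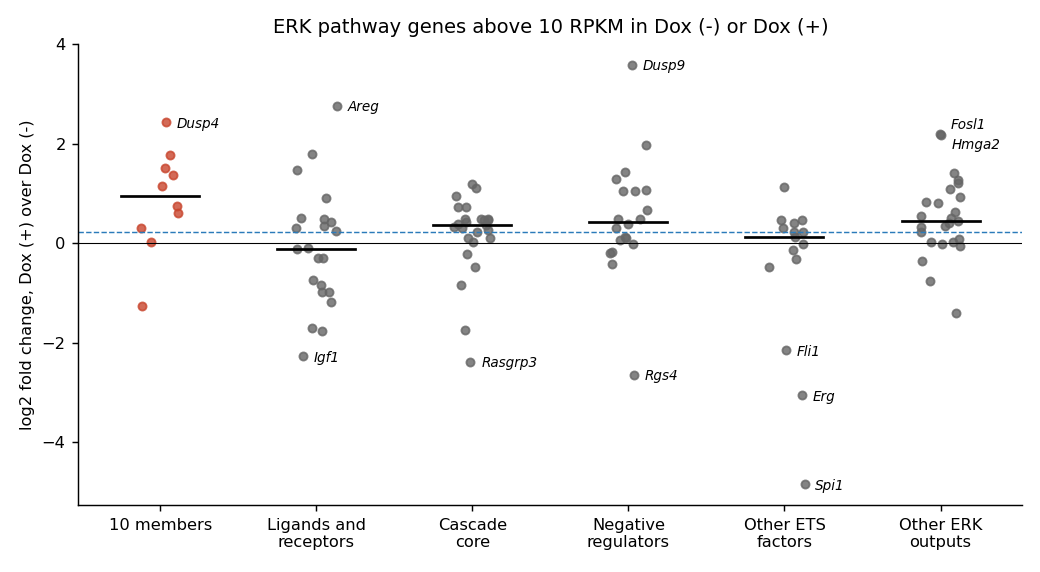
Change on the log2(RPKM + 1) scale from Dox (-) to Dox (+) of the 10 members (red) and of 5 lists of other pathway genes (grey), for genes above 10 RPKM in either library; black bars are medians, the blue dashed line is the median of all genes at 0.23 and genes beyond 2 are named. The members' median of 0.94 lies above the lists' medians, which run from -0.11 to 0.44, and Spi1 is the lowest point.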

How the data were processed

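Poly(A) RNA libraries (TruSeq v2) were sequenced. Per the labels and methods, the authors used bcl2fastq 2.17.1.14, aligned to mm10 with TopHat2 2.0.10, used bedtools to count reads on Ensembl exons and deposited the counts as RPKM. Counting by strand is not stated. Deposited columns were matched to libraries by name. The number of columns left unused was 1, so the planned PMel comparisons were not run and PMel is not analysed here. Of 234718 exons, 228132 matched GENCODE M21, and exons of protein coding, pseudogene and lincRNA genes were kept.

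The members and gene lists were chosen with earlier results of these data known. A gene was called above 10 RPKM in at least 1 of 2 libraries and past 4-fold or 2-fold, without a pseudocount. Log2 changes used a pseudocount of 1 RPKM, which understates changes of low genes. Reads were RPKM multiplied by exon length and by the depth, a whole number between 20 and 80 on the RPKM scale, that made most values below 200 reads whole. A floor of 3 reads equals 0.444 RPKM on 150 bp in Dox (-) and 0.455 in Dox (+). Ratios of reads have exact 95% counting intervals. There was 1 library per condition and no test. Named genes were all 10 members, up to 4 list genes called per direction and comparison, Mitf, overlapping genes and the 3 genes most like Dusp6. Dusp5 and Elk1, with the other genes named past 2-fold, were chosen after their values were seen. Alternatives changed the thresholds, pseudocount, exon choice and scaling. The steps were tested on simulated data. Python 3.11.15, pandas 2.3.3, NumPy 2.4.6, SciPy 1.17.1 and matplotlib 3.10.9 were used.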

Additional observations from a re-analysis of the deposited data

How the results depend on the processing

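The count of members past the fold threshold depended mainly on that threshold. At 2-fold in place of 4-fold, 6 of 10 genes were called between Dox (+) and Dox (-), and 7 between Dox (-) and WT MEF. Lowering the expression threshold to 1 RPKM added Spry4 and Etv1 to the second comparison, for 6 genes. Rescaling the libraries to a common median left 6 of the 8 genes called between Dox (+) and WT MEF, without Spry2 and Etv5, and turned the log2 change of Dusp6 across Dox from 0.02 to -0.20. Summed reads over exons also gave 6 there, with Etv4 in and Spred1, Etv1 and Etv5 out. Dusp4 alone was called across Dox at 4-fold under the 1 RPKM threshold, the rescaling and the summed reads. The shares over all genes under these settings were not computed, so these counts have no background beside them. Under the pseudocounts of 0.1 and 5 RPKM and every other choice of exon, all 10 members kept the sign of each change. Using exons that overlap no other gene, an alternative chosen after seeing the data, moved the log2 difference of Fgf2 between Dox (-) and WT MEF from 2.64 to 6.12. No paired analysis was possible because each group had 1 library. Depth limited the short exons most, such as the 54 bp exon of Etv1, with 3 reads in WT MEF.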
